A study of Mus musculus with 2 samples.

Results

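Shore windows are stretches of 1000 bp that flank a CpG dense stretch of the genome without being dense themselves. The autosomes were divided into fixed windows of 1000 bp, and a shore had 6 to 29 listed CpG cytosines and lay directly next to a dense window with at least 60. The strands of a CpG are listed as separate cytosines. Of 5165 windows that met this rule of position, 1430 held fewer than 3 cytosines read at least 10 times in each library and were left out. The other 3735 windows, here called shores, were analysed among 124884 autosomal windows that passed the same minimum. They were chosen by position and listed cytosines and not by methylation. Of the shores, 3719 had a dense window on 1 side and 16 on both sides.

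DNA methylation was measured in whole liver of 12-week-old CD-1 mice, an outbred stock. The fasted group had 12 hr without food before the mice were killed, and the control group was untreated with chow and water freely available. Each group had 1 library of reduced representation bisulfite sequencing, an assay of short fragments between sites of restriction enzymes that cut at CpGs, in which unmethylated cytosines appear as converted bases. The labels gave neither the sex nor whether a library held 1 mouse or several, so the values below have no replicate error, and each test compares 2 libraries and not the conditions. Coordinates are in mm10, counted from 1.

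In mammalian genomes most CpGs are methylated, whereas CpG islands, the dense stretches that often hold the start of a gene, are usually free of methylation. The flanks on which methylation rises with distance from an island are known as CpG island shores, and they differ more between tissues than the islands do. Methylation there is written by the DNMT enzymes and removed through the TET enzymes or by passive loss in dividing cells. The windows here were defined by listed cytosines, so a dense window is not an annotated CpG island.

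The sequences of 4 promoters that lie inside a shore show what was measured. The first had a shore called higher in the fasted library, the second a shore called lower, the third a large difference that was not called, and the fourth many measured cytosines near 0. Each is the stretch of 250 bases before the start of transcription from RefSeq (GRCm38.p6), printed in the direction of transcription with CpGs that held a measured cytosine in capitals. Egfem1, for a protein with EGF-like and EMI domains, lies at chr3:29081537-29081786 on the plus strand. Gp1bb, for a subunit of the platelet receptor of von Willebrand factor, lies at chr16:18622404-18622653 on the minus strand. Gm33636, a predicted gene, lies at chr15:97830436-97830685 on the plus strand. Cnbp, for a zinc-finger protein that binds nucleic acids, lies at chr6:87851107-87851356 on the minus strand.
Egfem1: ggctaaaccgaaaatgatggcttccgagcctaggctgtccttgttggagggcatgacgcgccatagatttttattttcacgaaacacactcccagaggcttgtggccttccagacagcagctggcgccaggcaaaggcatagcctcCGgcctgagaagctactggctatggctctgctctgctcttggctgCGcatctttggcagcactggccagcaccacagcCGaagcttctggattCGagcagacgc
Gp1bb: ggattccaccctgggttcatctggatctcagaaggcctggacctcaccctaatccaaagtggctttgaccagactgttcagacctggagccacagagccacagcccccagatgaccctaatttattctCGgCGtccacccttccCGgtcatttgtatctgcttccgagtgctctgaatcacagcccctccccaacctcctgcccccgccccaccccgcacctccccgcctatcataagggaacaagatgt
Gm33636: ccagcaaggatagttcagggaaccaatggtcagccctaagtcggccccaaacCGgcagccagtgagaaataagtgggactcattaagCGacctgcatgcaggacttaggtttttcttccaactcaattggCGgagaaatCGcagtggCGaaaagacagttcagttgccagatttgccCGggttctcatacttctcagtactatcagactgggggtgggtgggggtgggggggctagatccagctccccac
Cnbp: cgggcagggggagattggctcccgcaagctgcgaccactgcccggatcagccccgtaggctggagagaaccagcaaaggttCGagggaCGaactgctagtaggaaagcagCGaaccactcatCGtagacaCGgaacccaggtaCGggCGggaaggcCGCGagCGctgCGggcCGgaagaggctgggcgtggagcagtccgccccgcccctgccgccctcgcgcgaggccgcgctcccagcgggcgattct

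The measured cytosines filled only part of each shore. At Egfem1 the shore rested on 6 cytosines at 4 CpGs, which lay 11 to 104 bases before the start. Their mean level was 46.9% in the fasted library and 16.3% in the control library, and 5 of 6 were higher in the fasted library. At the CpG 59 bases before the start, the plus strand was methylated in 66.7% of 30 reads in the fasted library and 14.3% of 28 reads in the control library. The minus strand of the same CpG had 54.1% of 37 reads and 25% of 24 reads. The CpG 26 bases before the start had 40% of 15 reads in the fasted library and 42.9% of 14 reads in the control library on the plus strand, against 47.4% of 19 and 8.33% of 12 on the minus strand, so its strands did not move alike.

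The Gp1bb shore rested on 3 cytosines at 3 CpGs, 106 to 122 bases before the start. They were at 60.7% to 64.3% in the fasted library and 83.3% to 100% in the control library. All 3 lay on 1 strand within 17 bp, with 28 reads each in the fasted library and 18 in the control library. They thus probably share reads, and the shore was shown because it was called. The Gm33636 shore had 9 cytosines in its promoter, with a mean of 64.9% in the fasted library and 46.1% in the control library. With 10 to 17 reads at each cytosine this difference was not called (adjusted p = 0.160, Fisher's exact test on summed reads). The 22 measured cytosines of the Cnbp promoter were at most 6.67% in the fasted library and 5% in the control library, and 12 and 19 of them were at 0.

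Depth was similar in both libraries. The fasted library held 51276705 reads over cytosines and the control library 49253627, where a read counts for each cytosine it covers. In the shores 36332 cytosines were shared, a median of 8 per window, with a median of 21.1 reads per cytosine in the fasted library and 20 in the control library. Dense windows had a median of 24.6 reads in both libraries. Other windows with 6 to 29 listed cytosines but no dense neighbour had 17.6 reads in the fasted library and 16.7 in the control library. The shared cytosines of a shore spanned a median of 159 bp, so most windows report a small stretch, and 73.1% of the cytosines lay within 300 bp of the dense edge. In the fasted and the control library alike, some reads appear to be counted in pairs. At shore cytosines of 20 to 80% with 30 to 49 reads, both counts were even in 52.2% of cases in the fasted library and 56.7% in the control library. At 10 to 19 reads the shares were 27.5% and 30.2%.

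Shores were mostly unmethylated and stood between the dense windows and the rest of the genome. Their mean level was 17.8% in the fasted library and 18.02% in the control library, with medians of 3.57% and 3.85%. The mean depended on how reads entered: at a minimum of 20 reads it was 8.38% in the fasted library and 8.76% in the control library, and with equal weight for each read 10.7% and 10.5%. Dense windows averaged 5.53% in the fasted library and 5.46% in the control library. The 83901 other windows of the same count of listed cytosines averaged 71.0% in the fasted library and 70.9% in the control library. Within the same span of listed cytosines, a dense neighbour thus went with a level lower by over 50 points. The counts were not matched, with a median of 15 listed cytosines in shores and 10 in the other windows. Of the shores, 2462 (65.9%) had a mean over both libraries below 10%, 409 were at 10 to 25%, 310 at 25 to 50%, 226 at 50 to 75%, 163 at 75 to 90% and 165 at 90% or above.

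**Figure D1:**
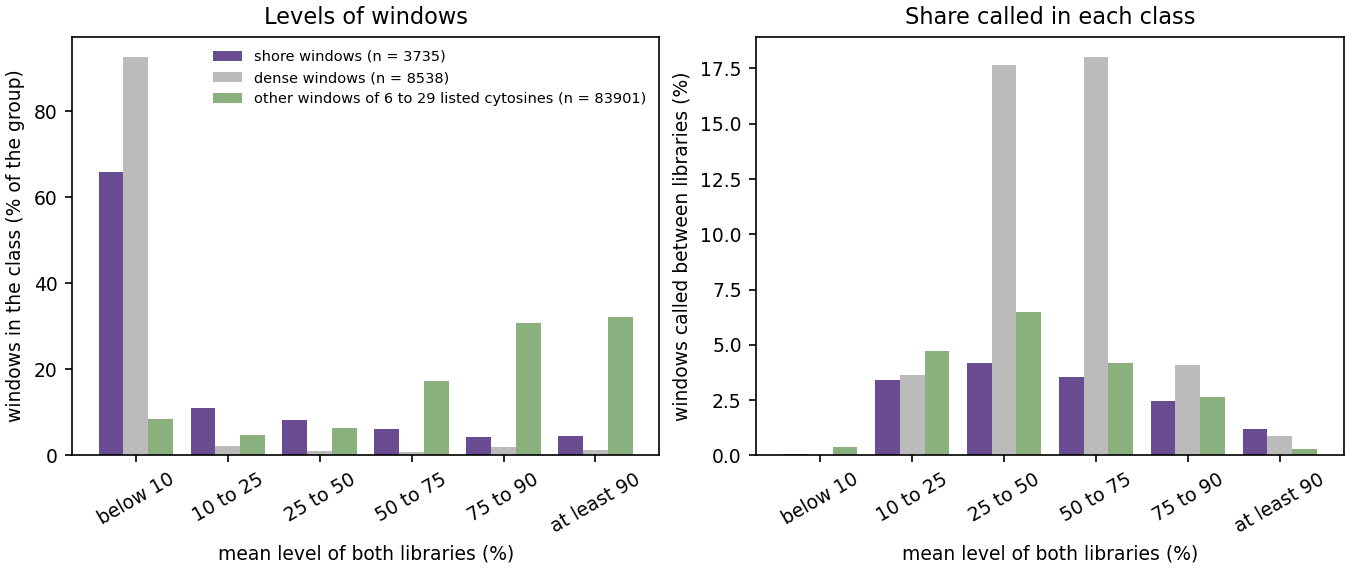
Left, share of windows in each class of methylation level (mean of both libraries, percent) for shores, dense windows and other windows of 6 to 29 listed cytosines; right, share of the windows in each class called different between the libraries (percent). Shores below 10% make up 65.9% of all shores, and 1 of them was called.

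Named windows show the range of shores. Eprs, for an aminoacyl-tRNA synthetase, had a shore at chr1:185362001 with 29 shared cytosines at a mean of 0.634% in the fasted library and 0.654% in the control library. Ogdh, for a subunit of a citric acid cycle enzyme, had 1.40% in the fasted library and 0.438% in the control library, and Trib2, for a pseudokinase, 3.59% and 4.24%. The shore of Tlnrd1 (chr7:83882001, 27 cytosines) stood at 29.2% in the fasted library and 35.8% in the control library beside a dense window at 0.254% and 0.684%. Shores of Cnnm2 and Fam43a were of this kind too, at 31.7% and 22.6% in the fasted library and 34.7% and 31.7% in the control library. A shore of Pofut2, for a protein O-fucosyltransferase (chr10:77260001, 15 cytosines), was at 95.5% in the fasted library and 95.4% in the control library, next to a dense window at 0.397% and 0.478%. High shores also lay beside methylated dense windows. At Ptprr, for a receptor-type tyrosine phosphatase (chr10:116114001, 17 cytosines), the shore had 95.3% in the fasted library and 96.8% in the control library, and the dense window 97.5% and 95.8%. At Bsn, for a scaffold protein of presynaptic terminals, the shore had 88.4% in the fasted library and 92.2% in the control library, and the dense window 63.7% and 70.0%.

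Methylation rose with distance from the dense edge. In the first 100 bp of the shores the mean cytosine level was 4.92% in the fasted library and 4.89% in the control library. Between 400 and 500 bp it was 20.9% in the fasted library and 21.8% in the control library, and in the last 100 bp 37.8% and 37.7%. Inside the dense windows the means per 100 bp stayed between 2.13% and 3.07% in the fasted library and between 2.09% and 3.09% in the control library. The bins drew on unlike sets of windows, 2391 in the first 100 bp of the shores and 338 in the last. A rise was also seen within single windows. In 317 shores with at least 3 shared cytosines in each stretch of 500 bp, the near stretch averaged 10.9% in both libraries, and the distant stretch 29.04% in the fasted library and 28.8% in the control library. The distant stretch was higher in 238 of these windows in the fasted library and 230 in the control library, and lower in 74 and 78.

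**Figure D2:**
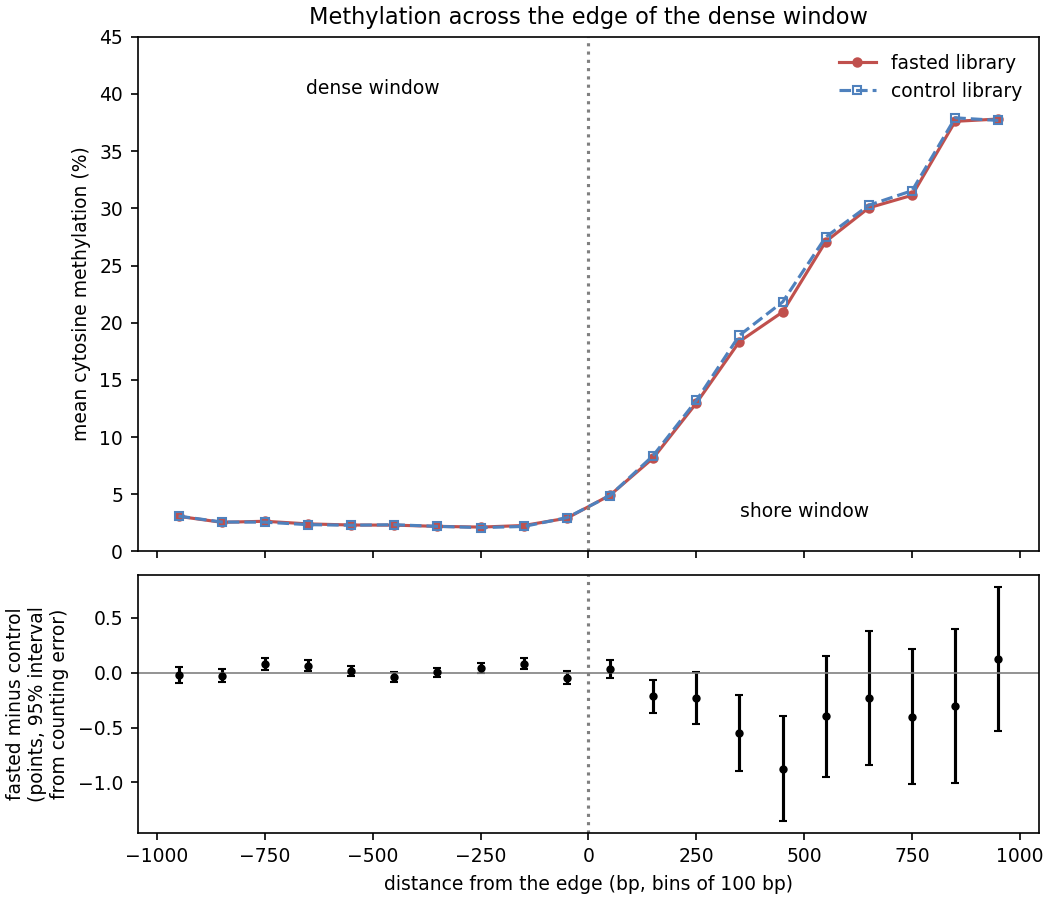
Top, mean methylation level (percent) of cytosines by distance from the dense edge (bp, 100 bp bins; negative inside the dense window, positive in the shore) in the fasted and the control library; bottom, fasted minus control (points) with 95% intervals of counting error. Levels stay near 2 to 3% inside the dense window and reach 37.8% in the fasted and 37.7% in the control library at the outer end of the shore. The intervals take reads at each cytosine as independent and are too narrow, as neighbouring cytosines share reads.

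Shores of intermediate mean level held unlike cytosines. The median SD of cytosine levels within a window was 4.37 points in the fasted library and 4.54 in the control library, but for shores with a mean level of 25 to 50% it was 24.9 and 25.2 points. In 203 shores in the fasted library and 208 in the control library, cytosines below 10% and of at least 80% stood side by side in the same window. Over the 36332 cytosines, 58.2% in the fasted library and 58.99% in the control library were at 0, and 6.12% and 6.11% were at 80% or more.

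Set beside their own dense neighbour, shores were higher in most cases and by little. Of 3717 shores with a measured dense neighbour, 2643 (71.1%) were above it in the fasted library and 2664 (71.7%) in the control library. The median excess was 1.83 points in the fasted library and 1.81 in the control library, and the mean excess 13.1 and 13.4 points. Where the dense window was below 10%, the shore was also below 10% in 69.3% of cases in the fasted library and 69.4% in the control library, and at 50% or more in 397 and 399 windows. Dense windows at 50% or more, 101 in the fasted library and 104 in the control library, had shores with a mean of 87.1% and 85.7%. In 555 cases the next window outward was measured too, and the dense window, the shore and that window averaged 4.55%, 17.3% and 43.7% in the fasted library against 4.67%, 17.6% and 44.2% in the control library.

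Shores lay below their dense neighbour in 1067 cases in the fasted library and 1049 in the control library. In both libraries 5 shores were at least 20 points lower. At Gja4, for a connexin of blood vessel endothelium (chr4:127313001, 16 cytosines), the shore had 1.83% in the fasted library and 1.77% in the control library, and the dense window 48.2% and 58.2%. At Mzf1, for a zinc-finger transcription factor (chr7:13044001, 25 cytosines), the shore had 1.76% in the fasted library and 3.63% in the control library, next to 26.3% in both. Shores at Shroom1, for an actin-binding protein, and at Ccin, for a cytoskeletal protein of the sperm head, were others of this kind.

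The flanks of 1 dense window were only weakly correlated in level. For 390 dense windows with a shore on each side, the level of the left and the right shore correlated with a Pearson r of 0.148 in the fasted library and 0.149 in the control library (Spearman rho 0.0955 and 0.128). These pairs share a library and a dense window, and the values are a description only. Both shores were below 10% in 160 pairs in the fasted library and 158 in the control library, and both at 50% or more in 18 and 20. In 69 pairs in the fasted library and 64 in the control library, 1 shore was below 10% and the other at 50% or more. The shore and its dense window correlated with r = 0.469 in the fasted library and 0.465 in the control library over 3717 windows.

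Position relative to genes went with the level. Of the shores, 3040 (81.4%) lay inside a gene, 611 within 2000 bp of one and 84 farther away. Those inside genes averaged 16.6% in the fasted library and 16.8% in the control library, and those farther away 52.9% and 52.7%. Shores that held a start of transcription, 388 in number, averaged 6.68% in the fasted library and 6.63% in the control library. Shores with a centre over 2000 bp from the nearest start averaged 26.1% in both libraries. Where the dense window held the start, the shore on its upstream side averaged 16.8% in the fasted library and 17.1% in the control library (862 windows), and that on its downstream side 13.6% and 13.95% (931 windows). Starts were not looked up on chromosome 18, and exons and introns were not analysed here.

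Promoters inside shores were intermediate in CpG content. The 267 RefSeq promoters of 300 bp that lay whole in a shore had a median of 14 CpGs, a GC content of 57.7% and an observed to expected CpG ratio of 0.612. For this comparison, dense windows and other windows of 6 to 29 listed cytosines were taken without the minimum of shared cytosines that shores passed. The 4121 in dense windows had a median of 30 CpGs and a ratio of 0.889, and all 31365 had 7 CpGs and a ratio of 0.388. On both strands the MspI site CCGG was in 65.5% of shore promoters, 67.8% of those in other windows of 6 to 29 listed cytosines and 53.5% of all promoters. The TaqαI site TCGA was in 26.2% of shore promoters, 26.8% of those in such other windows and 22.1% of all. CCAAT was in 42.3% of shore promoters, 37.6% of those in such other windows and 37.3% of all. In dense windows CCGG was in 96.5% of promoters, TCGA in 33.9% and CCAAT in 32.2%. Shore promoters were thus not between those of dense and such other windows in these motifs. As only the shores had to hold measured cytosines, these shares compare unlike sets. The letters TATAAA were in 3.75% of shore promoters, 3.88% of those in dense windows, 11.1% of those in such other windows and 13.6% of all.

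The number of listed cytosines also went with the level. Shores with 6 to 9 listed cytosines averaged 25.6% in the fasted library and 25.8% in the control library, and those with 25 to 29 averaged 10.1% and 10.6%. Across shores the correlation of both was r = -0.1875 in the mean of the libraries. Windows just outside the upper limit, with 30 to 34 listed cytosines, averaged 7.59% in the fasted library and 7.91% in the control library. Windows just outside the lower limit, with 4 or 5, averaged 21.7% and 22.1%, against 25.4% in both libraries for shores with 6 or 7. Beside neighbours of 55 to 59 listed cytosines, just short of dense, the level was 21.4% in the fasted library and 21.8% in the control library, against 24.8% and 24.9% beside neighbours of 60 to 64.

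Between the libraries, shores differed little as a whole. The mean difference, fasted minus control, was -0.207 points, with a 95% interval of -0.320 to -0.0931. Intervals here and below take the reads at each cytosine as independent draws. Neighbouring cytosines share reads, so these intervals are too narrow, and they hold no spread between mice. Its sign turned when each read had equal weight, which gave 10.7% in the fasted library and 10.5% in the control library. The median difference was 0, the SD 5.10 points, and 81.3% of shores differed by less than 5 points. Dense windows differed by a mean of 0.0654 points, and the other windows of 6 to 29 listed cytosines by 0.148 points. By chromosome, the mean difference of shores lay between -1.18 and 0.541 points and was below 0 on 13 of 19 autosomes. Fasted and control levels of the shores correlated with r = 0.983 and rho = 0.883 over 3735 windows.

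Shores of low to intermediate level had a slightly lower mean in the fasted library. Shores at 10 to 25% averaged 15.8% in the fasted library and 16.8% in the control library, a difference of -0.928 points (-1.36 to -0.497), with 16 of 19 autosomes below 0. Shores at 25 to 50% averaged 35.4% in the fasted library and 36.7% in the control library, a difference of -1.29 points (-1.97 to -0.616), with 14 of 19 below 0. Those below 10% differed by -0.0470 points (-0.117 to 0.0233), an interval that includes 0. Those at 50 to 75% differed by 0.183 points (-0.738 to 1.10) and those at 75 to 90% by 0.806 points (-0.108 to 1.72), with intervals that also include 0. The other windows of 6 to 29 listed cytosines had differences of -1.42 points at 10 to 25% and -1.14 points at 25 to 50%. Windows away from dense stretches thus had differences of the same sign, and whether shores differ from them was not tested. Differences below 0 were seen in 221 of 409 shores at 10 to 25% and 174 of 310 at 25 to 50%. Over all tested windows, 19 of 19 autosomes had a mean below 0 in both classes. Autosomes of the same libraries are not replicates.

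The strands of a CpG gave a measure of spread within a library. In 1780 shores with at least 3 CpGs read on both strands, the SD of the difference between strands was 3.99 points in the fasted library and 4.18 points in the control library. The SD of the difference between libraries was 4.25 points on the plus strand and 4.515 points on the minus strand. A difference of at least 10 points between the strands was seen in 62 of these windows in the fasted library and 83 in the control library, and between the libraries in 73 on the plus strand and 80 on the minus strand. Strands of a CpG come from the same cells, but are separate reads.

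A window was called when its summed reads differed at an adjusted p under 0.05 (Fisher's exact test, Benjamini-Hochberg over all 124884 windows) and its mean cytosine levels differed by at least 10 points. Among the shores 42 (1.12%) were called, 16 (0.428%) with higher and 26 (0.696%) with lower methylation in the fasted library. Over all tested windows 1.06% were called higher and 0.942% lower, 2.0% in all, so the shores' shares were below this background. Most shores sit near 0, where few calls are made, and the share depends on the level. At 25 to 75%, 21 of 536 shores (3.92%) were called, against 26 of 146 dense windows (17.8%) and 956 of 19949 other windows of 6 to 29 listed cytosines (4.79%). In the classes of 25 to 50% and 50 to 75%, shores had medians of 6 and 5 shared cytosines and dense windows 42 and 29, and the part of this in the shares called was not tested. When reads were divided by the number of cytosines in a window no shore was called in either direction. With all read counts halved, 0 were called higher and 3 lower, those of Izumo4, 2610016A17Rik and Adcy3.

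Among the windows called higher with at least 6 shared cytosines, Egfem1 had the largest difference. Its summed reads were 50% methylated of 134 in the fasted library (exact 95% interval 41.2 to 58.7) and 17.3% of 104 in the control library (10.6 to 26.0), adjusted p = 4.10e-05 by Fisher's exact test. The dense window beside it had 2.39% in the fasted library and 3.61% in the control library. The shore that holds the start of Aebp2, for a cofactor of Polycomb complex PRC2 (chr6:140622001), had 62.5% in the fasted library and 37.9% in the control library, and 6 of 6 cytosines were higher. Syk, for a tyrosine kinase of immune receptor signalling (chr13:52584001), had 55.6% in the fasted library and 36.4% in the control library over 11 cytosines.

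Other shores called higher were spread over genes of unlike function. Disp3, for a protein of the Dispatched family (chr4:148272001), had 65.4% in the fasted library and 48.3% in the control library. Klhl35, of the Kelch-like family (chr7:99469001), had 26.0% in the fasted library and 8.96% in the control library. Its differences above 20 points were all at minus-strand cytosines with 10 reads in each library and even counts of methylated reads. Serinc3, of the serine incorporator family (chr2:163643001), had 64.7% in the fasted library and 49.3% in the control library, with 19 of 22 cytosines higher. Foxo6, for a forkhead factor of the insulin-regulated FoxO family (chr4:120267001), had 45.9% in the fasted library and 32.9% in the control library. A shore 558 bp from Nsmce1, for a subunit of the SMC5/6 complex (chr7:125492001), had 90.6% in the fasted library and 79.1% in the control library beside a dense window below 1% in both. A shore farther from genes, 12005 bp from the snoRNA gene Gm22546 (chr10:11635001), had 92.0% in the fasted library and 77.2% in the control library. At a minimum of 20 reads, Foxo6, Nsmce1 and Commd1 were no longer called, and at 5 reads Foxo6 was not. Egfem1, Aebp2, Syk, Disp3, Klhl35, Serinc3 and the Gm22546 shore had too few cytosines to be measured at 20 reads.

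The shore called higher at Commd1 (chr11:22973001) also lies at Zrsr1, an imprinted gene inside Commd1. It had 49.9% in the fasted library and 31.1% in the control library over 11 cytosines. Its dense window was at 29.5% in the fasted library and 25.1% in the control library, and the next window outward at 50.6% and 39.3%. The 3 windows in a row were thus higher in the fasted library, but the shore was chosen for its call. Among the 42 called shores, the dense window differed in the same direction at 23, and the outer window at 4 of 8 measured. In the Commd1 shore, differences above 20 points were all at minus-strand cytosines with 13 reads in the fasted library and 11 in the control library.

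**Figure D3:**
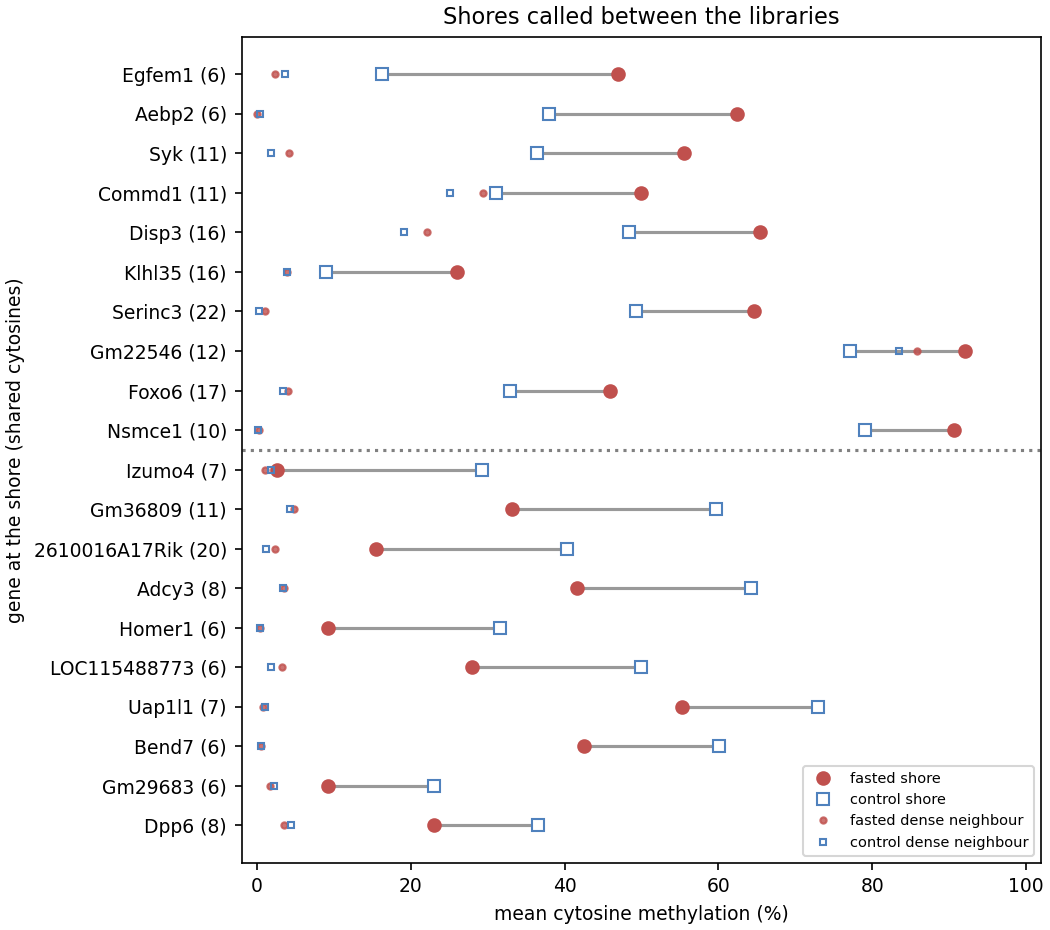
Mean methylation level (percent) of the named shores called higher (upper block) and lower (lower block) in the fasted library, with the fasted library as circles and the control library as squares; small symbols show the dense window beside each. The shores differ by 11.6 to 30.6 points in the upper block and by 13.6 to 26.6 points in the lower one, while most of their dense windows stay below 5% in both libraries.

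Among the windows called lower, Izumo4, of the family named after the sperm protein Izumo (chr10:80703001, 7 cytosines), had 2.60% in the fasted library and 29.2% in the control library. Its summed reads were 2.99% methylated of 201 in the fasted library (1.10 to 6.38) and 32.1% of 131 in the control library (24.2 to 40.8), adjusted p = 1.46e-10 by Fisher's exact test. A shore in the lncRNA gene 2610016A17Rik (chr19:25671001), 394 bp from the transcription factor gene Dmrt2, had 15.5% in the fasted library and 40.3% in the control library, with 19 of 20 cytosines lower. Its summed reads were 15.3% methylated of 392 (11.9 to 19.3) in the fasted library and 39.8% of 369 (34.8 to 45.03) in the control library. The shore holding the start of Adcy3, for an adenylate cyclase that makes cAMP (chr12:4134001), had 41.7% in the fasted library and 64.2% in the control library, lower at 8 of 8 cytosines.

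At Gm36809, Homer1, Dpp6, LOC115488773 and Bend7 no measured cytosine was higher in the fasted library, and at Uap1l1 and Gm29683 1 was. The called shores here and above were chosen for their difference, and neighbouring cytosines share reads. Counts of cytosines that differ in 1 direction are therefore no separate support. The lncRNA gene Gm36809 (chr7:24953001) had 33.2% in the fasted library and 59.7% in the control library, lower at 11 of 11 cytosines within 44 bp. Homer1, for a scaffold protein of the postsynaptic density (chr13:93305001), had 9.29% in the fasted library and 31.6% in the control library. Dpp6, for an auxiliary subunit of potassium channels (chr5:26818001), had 23.0% in the fasted library and 36.6% in the control library. A shore in LOC115488773, 6013 bp from the cardiac factor gene Nkx2-5 (chr17:26851001), had 27.9% in the fasted library and 49.9% in the control library, but was not called at a minimum of 20 reads. Homer1, Uap1l1 and 2610016A17Rik had too few cytosines to be measured at that minimum. Shores beside Uap1l1 (chr2:25366001) and Bend7 (chr2:4716001) had 55.2% and 42.6% in the fasted library against 73.0% and 60.1% in the control library. Gm29683 (chr7:70330001), 20946 bp from the nuclear receptor gene Nr2f2, had 9.29% in the fasted library and 23.0% in the control library.

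The pair of called shores with the largest differences had fewer than 6 shared cytosines, and both were lower in the fasted library. Gde1, for a glycerophosphodiester phosphodiesterase (chr7:118704001), had 13.1% in the fasted library and 54.95% in the control library over 4 cytosines. Ptpru, for a receptor-type tyrosine phosphatase (chr4:131839001), had 42.9% in the fasted library and 79.2% in the control library, also over 4 cytosines. Among shores called higher, Psmd6, for a proteasome subunit (chr14:14119001), had 96.4% in the fasted library and 69.9% in the control library over 4 cytosines. These windows were chosen after their values were seen. Of all 42 calls, 34 lay inside a gene, as did 81.4% of all shores, and the calls were spread over 16 chromosomes.

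Dense windows beside called shores differed little between the libraries, as dense windows did in general, of which 97.7% differed by less than 5 points. Of the 42 called shores, 23 had a dense window that differed in the same direction, and 0 had one that did so by at least 5 points. Of 8 with a measured window on the outer side, 4 differed in the same direction, 3 of them by at least 5 points. Over 3717 shores the difference between libraries correlated with that of the dense window with r = 0.0737 and rho = 0.0445. Bend7 was among those with a like difference outward, at 49.6% in the fasted library and 68.8% in the control library.

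Single cytosines were called at an adjusted p under 0.05 by Fisher's exact test over 1603296 cytosines and a difference of at least 25 points. In the shores 7 cytosines in 7 windows were called, 2 with a higher and 5 with a lower level in the fasted library. That is a share of 0.0193%, against 0.082% of all tested cytosines (0.0448% higher and 0.0372% lower). At chr12:8498338, in the shore of Rhob, for a small GTPase, 50% of 28 reads were methylated in the fasted library and 0% of 36 in the control library. At chr10:80703230, in the Izumo4 shore, the levels were 6.06% of 33 reads in the fasted library and 61.9% of 21 in the control library. At chr16:30601094, in the shore of Fam43a, they were 14.3% of 28 reads and 63.6% of 44.

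**Figure D4:**
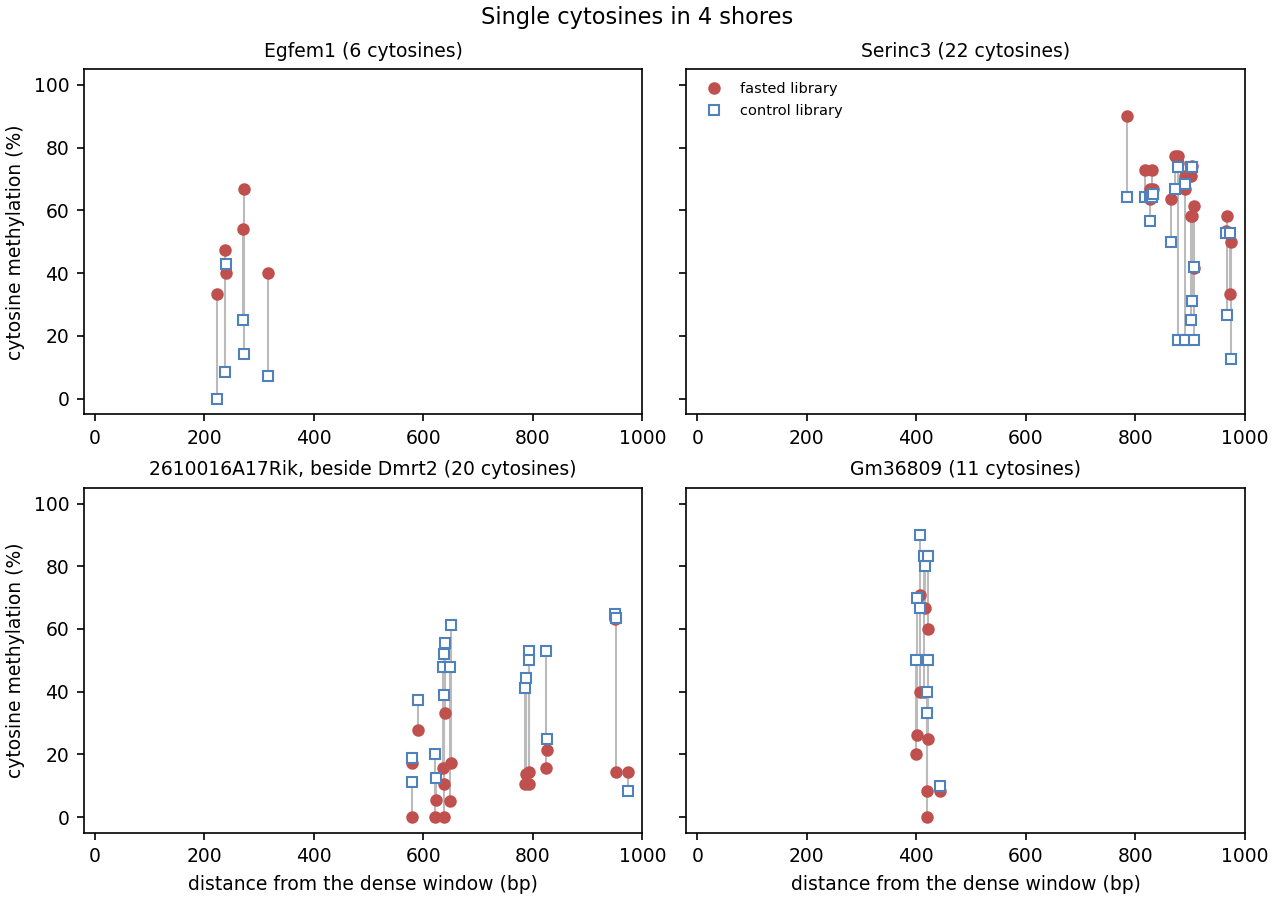
Methylation level (percent) of each shared cytosine against its distance from the dense window (bp) for shores of Egfem1, Serinc3, 2610016A17Rik and Gm36809, fasted library in red and control library in blue. The windows were chosen for their difference in summed reads, and neighbouring cytosines share reads, so most cytosines of a window differ in 1 direction: 5 of 6 at Egfem1 and 19 of 22 at Serinc3 are higher in the fasted library, and 19 of 20 at 2610016A17Rik and 11 of 11 at Gm36809 are lower.

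Most genes of the fasting response had no measured shore, and neither had most genes in general. With 1 gene assigned to each shore, the shores fell to 3284 distinct genes, against 47038 autosomal genes. The lists count every gene with a shore inside it or within 2000 bp, so the measures are not alike. On all 12 lists the calls were too few to read: at the 1.12% of all shores or the 2.0% of all windows called, lists of this size would hold 0 or 1 call, so their counts say nothing about these genes. Developmental transcription factors and imprinted genes had 1 call each, and the other 10 lists had 0. For gluconeogenesis, by which the liver makes glucose in a fast, 5 of 19 autosomal genes had one, with 6 shores at a mean of 10.2% in the fasted library and 9.82% in the control library. The shore of Pcx, for pyruvate carboxylase, had 0.529% in the fasted library and 3.88% in the control library, and that of Irs2, for an insulin receptor substrate, 34.05% and 27.7%. For fat oxidation and ketone bodies it was 3 of 25 genes and 5 shores, at 22.6% in the fasted library and 25.3% in the control library. A shore near Pnpla2, for a triglyceride lipase, had 76.0% in the fasted library and 84.1% in the control library. The Pnpla2 window also lies inside the gene Cracr2b. For lipid and sterol synthesis, 7 of 28 genes had 12 shores at 7.53% in the fasted library and 7.675% in the control library. The shore near Srebf2, for the activator of sterol synthesis genes, lies inside Shisa8 and had 5.88% in the fasted library and 11.1% in the control library.

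Regulators were mostly unmethylated in their shores, as were shores in general, of which 65.9% were below 10%. Hepatocyte transcription factors (12 of 21 genes, 14 shores) averaged 10.4% in the fasted library and 10.6% in the control library, and none was called. Foxa2, a pioneer factor of liver, had 13.8% in the fasted library and 5.91% in the control library, which passed the adjusted p (0.0222, Fisher's exact test) but not the 10 points. Rxra, for a partner of many nuclear receptors, had 2% in the fasted library and 6.55% in the control library. Clock genes (6 of 21, 6 shores) averaged 1.52% in the fasted library and 1.33% in the control library, with Arntl, for the activator BMAL1, at 1.21% and 2.31%, and a shore near Per3, for a clock repressor, at 2.46% and 1.37%. Growth hormone and IGF genes (5 of 15, 5 shores) averaged 7.23% in the fasted library and 6.38% in the control library. Among them Igfbp3, for a binding protein of IGF, had 24.4% in the fasted library and 17.7% in the control library, and Igf2 had 3.72% and 8.03%. Genes of the DNA methylation machinery (6 of 17, 6 shores) averaged 0.713% in the fasted library and 0.451% in the control library, and the largest differences were those of Gadd45b, a gene linked to demethylation, at 1.42% and 0.395%, and of Mbd3, for a subunit of the NuRD complex, at 0.649% and 0%. These lists held no called shore.

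Developmental transcription factors, often found in long CpG dense stretches, had shores at 28 of 50 genes. Their 41 shores averaged 8.55% in the fasted library and 10.5% in the control library, 15 above and 26 below 0 in difference, with a median difference of -0.927 points against 0 over all shores, -0.385 over shores at 10 to 25% and 0.0129 over all tested windows. Of these, 1 was called lower, that of Six2, a factor of kidney progenitors (chr17:85686001), with 4.55% in the fasted library and 20.8% in the control library over 5 cytosines. Gata2, a factor of blood stem cells, had 2.78% in the fasted library and 30.3% in the control library over 3 cytosines and was not called (adjusted p = 0.0676, Fisher's exact test), though at a minimum of 5 reads it was. Lhx2, a LIM homeobox factor that is also on the list of stellate cells, had 0% in the fasted library and 10.3% in the control library. The largest difference upward, chosen after its value was seen, was at Tbx1, a T-box factor, with 62.4% in the fasted library and 52.0% in the control library over 3 cytosines, also not called.

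Imprinted genes, of which the parental copies differ in methylation, had shores at 6 of 30. Their 8 shores averaged 29.1% in the fasted library and 23.7% in the control library, and 1 was called higher, that of Zrsr1 given above. Cdkn1c, an imprinted inhibitor of the cell cycle, had 90.9% in the fasted library and 76.7% in the control library and was not called. Housekeeping genes (5 of 18, 7 shores) averaged 12.4% in the fasted library and 11.0% in the control library, with Rplp0, for a ribosomal protein, at 67.3% and 60.0%, and Actb, for beta-actin, at 9.255% and 6.63%.

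Genes that mark cell types were little covered, as were genes in general, and of 7 hepatocyte markers 0 had a measured shore. Endothelial and stellate genes had 5 shores at 4 of 24 genes, at 17.6% in the fasted library and 18.9% in the control library. Immune genes had 3 shores at 2 of 22 genes, at 16.1% in the fasted library and 18.4% in the control library. Runx3, for a factor of T cells, had a pair of them, at 10.5% and 33.6% in the fasted library against 18.5% and 32.5% in the control library. Of 19 defining markers of hepatocytes, endothelium, immune and stellate cells, 1 had a measured shore, Des of stellate cells, at 72.2% in the fasted library and 64.7% in the control library. Around the gene starts of 6 markers with enough reads, all levels were lower in the fasted library, the Des start included, at 12.4% in the fasted library and 14.7% in the control library. The hepatocyte genes Apob and Hnf4a had 9.06% and 23.1% in the fasted library against 13.1% and 25.9% in the control library. Endothelial Kdr had 3.69% in the fasted library and 3.84% in the control library, immune Cd37 48.5% and 52.5%, and stellate Lrat 4.29% and 5.1%. These differences were not tested. Over all tested windows the mean difference was -0.0761 points below 10%, -1.33 at 10 to 25%, -1.20 at 25 to 50% and 0.491 at 50 to 75%. The share of all gene starts that were lower was not computed, so the direction at these 6 says nothing about markers. The makeup of cell types in the libraries and its part in the differences was not tested.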

How the data were processed

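Per the labels, liver DNA was cut with MspI and TaqαI, size selected and bisulfite converted. The tools bcl2fastq 1.8.4 and Bismark 0.14.3 and the build mm10 come from the submitters' processing notes. Settings and duplicate handling were not given in the sources used here. The files deposited by the authors list CpG cytosines with a text field of methylated reads, total reads and percent. A deposited score column equals the methylated fraction multiplied by 1000, and differed from the read counts by rounding only. Levels were computed from the counts, without normalization, at cytosines read at least 10 times in each library, and a window's level is the mean over its cytosines. The fasted and the control library held 51276705 and 49253627 reads over cytosines. Reads carry no molecular identifiers, PCR copies are not independent and neighbouring cytosines share reads. The p-values and intervals (95%, exact for shares) take reads at each cytosine as independent draws. Intervals are therefore too narrow and p-values too small, and neither covers a spread between mice.

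Samples were grouped by their titles. Windows and cytosines were compared by two-sided Fisher's exact tests with Benjamini-Hochberg adjustment over all autosomal windows or cytosines. The named windows are the 10 called shores in each direction with the largest difference among those with at least 6 shared cytosines, the called shores and the 2 with the largest difference of each of 12 gene lists, and the shores with the most cytosines per class of level. Some of these windows are not reported here. Members and lists were chosen with earlier results of these data known. Gene positions and promoter sequences came from RefSeq tables of GRCm38.p6, the build of mm10. All 212458 shared cytosines inside those promoters lay at a CG. The scripts were tested on simulated data. Alternatives were other read minimums, a coverage cap, merged strands, thinning to equal depth, other limits of dense windows, a shifted grid, read weighting, other thresholds and divided or halved reads. Added after seeing the data were the cytosine calls at other minimums and halved, and leaving out shores with a start inside. Python 3.11.15, numpy 2.4.6, pandas 2.3.3, scipy 1.17.1, numba 0.67.0 and matplotlib 3.10.9 were used.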

Additional observations from a re-analysis of the deposited data

How the results depend on the processing

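No paired analysis was possible because each group has 1 library and the labels give no replicate numbers, and for the same reason no replicate could be left out. The levels of shores and their excess over the dense window moved most with the read minimum. At 5 reads the shores had 22.3% in the fasted library and 22.5% in the control library, with an excess of 16.4 and 16.7 points. At 20 reads they had 8.38% in the fasted library and 8.76% in the control library, with an excess of 5.66 and 6.07 points, a difference of -0.381 points, and 4 called higher and 14 lower. With at least 6 shared cytosines the levels were 12.5% in the fasted library and 12.6% in the control library, and the excess 8.95 and 9.14 points. Merged strands gave 19.6% in the fasted library and 19.9% in the control library, an excess of 14.4 and 14.8 points and a difference of -0.348 points. A dense minimum of 80 gave 14.8% in the fasted library and 14.98% in the control library, an excess of 11.8 and 12.0 points, and 8 called higher and 13 lower. A dense minimum of 40 gave 21.8% in the fasted library and 22.0% in the control library, and 29 called higher and 46 lower. The grid moved by 500 bp gave 16.9% in the fasted library and 17.3% in the control library, an excess of 12.5 and 12.8 points and a difference of -0.355 points. Equal weight for each read gave 10.7% in the fasted library and 10.5% in the control library, an excess of 8.19 and 8.06 points and a difference of 0.142 points, so the sign turned. Without shores that hold a start the levels were 19.1% in the fasted library and 19.3% in the control library. Bins of 200 bp gave a rise of 31.7 points in the fasted library and 31.8 in the control library across the shore, against 32.9 and 32.8 points in bins of 100 bp.

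Calls of windows depended on thresholds and on how reads were counted. Thinning to equal depth left 8 called higher and 17 lower, a threshold of 20 points 4 and 10, and no minimum difference 36 and 44. Halved read counts left 0 higher and 3 lower, and division of reads by the number of cytosines 0 and 0. At a minimum of 20 reads, 1 of the 16 and 9 of the 26 calls were kept, and 11 and 11 of these windows were not measured. For single cytosines, 3 were called lower at 5 reads, and 0 in each direction with halved counts. Of the named windows not called, Arntl turned to 0.568 points at 20 reads, Actb to -1.24 points at 5 reads and a shore of Runx3 to -3.07 points at 5 reads, and the cause was not tested. Gata2 was called lower at 5 reads, by -25.9 points. A coverage cap moved none of the shores' means or counts by over 1.5 times. With 1 library per group and a median of 8 shared cytosines, differences within the spread between mice could not be told from differences of the fast.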
